A study of Homo sapiens with 16 samples.

Results

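The kallikrein-related peptidases are a family of secreted serine proteases whose genes lie side by side on chromosome 19. The 6 described here, KLK5, KLK6, KLK7, KLK8, KLK10 and KLK11, were taken as the rows of the gene tables whose NCBI gene number maps to these symbols. They are 6 of the 27434 rows in each table, and each was found as a single row not joined to another gene. They were chosen by a measured difference: KLK5 and KLK7 had higher counts in the SAM68 knockout. Every knockout against wild-type value of the 6 genes below is therefore a description, with no test.

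Kallikreins are made as inactive precursors, secreted, and activated by removal of a short propeptide, often by another kallikrein or by a membrane-bound protease. In the outer layer of the skin, KLK5 cuts after basic residues and activates itself and the KLK7 precursor. KLK7 has chymotrypsin-like specificity, and the pair cleave the junction proteins that hold cornified cells together. SPINK5 encodes LEKTI, the inhibitor that restrains them there. KLK6 is best known from the nervous system, where it cleaves myelin proteins. KLK8, or neuropsin, acts on synapses in the mouse hippocampus and is also made in the epidermis. KLK10 was first described as an mRNA of normal breast epithelium lost in tumour lines. KLK11 is a trypsin-like member.

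The study sequenced poly(A) RNA from 16 libraries, in 8 groups of 2. In HCT116, a colorectal carcinoma line, SAM68 KO cells received siRNAs against the long noncoding RNA NORAD or a non-targeting control pool, and WT cells received the same. In U2OS, an osteosarcoma line with a wild-type background, cells received SAM68 siRNAs or the control pool, or a plasmid encoding mouse SAM68 or the empty plasmid. Every culture was thus transfected, with 50 nM siRNA or with 100 ng of plasmid per 20000 cells, and harvested after 48 h. The labels do not say how the knockout was made, whether it is 1 clone, or if paired libraries derive from different cultures. Spread between libraries, and so every p-value, may thus reflect technical variation alone. Any difference between the KO and WT lines other than SAM68 cannot be told apart from the knockout.

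Libraries held 11349545 to 27387412 expected counts. KHDRBS1, the gene of SAM68, had 32.5 to 45.6 CPM (expected counts relative to a library size adjusted by TMM) in the 4 KO libraries and 215 to 250 CPM in the 4 WT libraries. NORAD had 48.8 to 78.7 CPM in the 4 HCT116 libraries given NORAD siRNA and 231 to 259 CPM in the 4 given control siRNA. Of 20 colon epithelial markers, 11 averaged over 1 CPM in HCT116, led by KRT8 and KRT18, and 6 did so in U2OS. KRT8 averaged 2412 CPM in KO HCT116, 2190 CPM in WT HCT116 and 356 CPM in U2OS, and KRT18 901, 836 and 519 CPM. VIL1, CDX1, CEACAM6 and TFF3 were at 0 in all 8 HCT116 libraries. Of 15 mesenchymal and bone markers, 13 averaged over 1 CPM in U2OS, led by VIM and FN1, and 8 did so in HCT116. Their sum was 5902 to 9696 CPM in U2OS libraries and 35.7 to 50.0 CPM in HCT116 libraries.

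For the promoters of the 3 genes at the KLK5 end of the group, the RefSeq windows of assembly GRCh38.p14 are shown. Each runs from 250 bases before a transcript start to 50 after it. The KO mean over the WT mean in CPM was 5.24 for KLK5, 2.31 for KLK7 and 1.24 for KLK6. The KLK6 ratio was the smallest among the members with any WT counts. All 3 lie on the minus strand of chromosome 19: KLK5 at chr19:50952989-50953288, KLK6 at chr19:50969542-50969841 and the outermost of 3 KLK7 starts at chr19:50984015-50984314. The gene tables were made on build hg19, so these positions belong to the windows and not to the counts. Sequences run 5′ to 3′ along the genes, and capitals mark the GC box GGGCGG on either strand.
KLK5: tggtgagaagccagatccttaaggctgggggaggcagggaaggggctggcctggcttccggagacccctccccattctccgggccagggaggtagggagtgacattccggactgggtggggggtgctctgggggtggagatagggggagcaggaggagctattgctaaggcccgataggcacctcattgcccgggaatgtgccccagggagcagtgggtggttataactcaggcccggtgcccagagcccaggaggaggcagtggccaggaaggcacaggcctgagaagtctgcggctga
KLK6: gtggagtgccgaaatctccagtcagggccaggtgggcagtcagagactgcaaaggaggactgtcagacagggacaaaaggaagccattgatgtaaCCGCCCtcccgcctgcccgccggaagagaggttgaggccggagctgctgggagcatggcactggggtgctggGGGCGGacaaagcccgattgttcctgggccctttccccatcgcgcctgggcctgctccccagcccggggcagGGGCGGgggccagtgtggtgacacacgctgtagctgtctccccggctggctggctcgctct
KLK7: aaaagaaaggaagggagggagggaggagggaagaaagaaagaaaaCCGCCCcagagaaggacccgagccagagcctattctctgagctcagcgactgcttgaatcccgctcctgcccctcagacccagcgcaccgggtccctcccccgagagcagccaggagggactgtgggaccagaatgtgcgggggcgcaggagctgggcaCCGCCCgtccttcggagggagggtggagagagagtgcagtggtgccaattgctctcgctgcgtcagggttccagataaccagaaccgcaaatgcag

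The KLK5 window holds 0 GC boxes, the KLK6 window 3 and the printed KLK7 window 2. The motif is found in 45.0% of the 35116 windows of the same length in the table. A further 4 motifs were searched on both strands: TATAAA, the AP-1 site TGANTCA, the nuclear receptor half-site AGGTCA and the grainyhead-like site AACCNGGTT. None of these 4 motifs occurs in any of the 9 windows of the 5 members that have one. Over all windows TATAAA is found in 11.5%, TGANTCA in 7.71%, AGGTCA in 13.8% and AACCNGGTT in 0.239%. The windows of KLK10 hold no GC box, and 1 of the 2 windows of KLK11 holds 3. The KLK5 window has 7 CpG dinucleotides, the KLK6 window 15 and the KLK7 window 15, while all 3 have similar base composition, with 64.7%, 66.3% and 62.0% G and C. The GC box is thus present in the KLK6 and KLK7 windows and absent from the KLK5 window.

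KLK5 stood farthest apart by genotype. In bulk RNA, more cells with a transcript and more transcript per cell cannot be told apart. In KO cells it had 8.03 and 7.40 CPM with NORAD siRNA and 8.97 and 8.54 CPM with control siRNA. In WT cells it had 1.59 and 1.01 CPM with NORAD siRNA and 2.12 and 1.57 CPM with control siRNA. All 4 KO libraries lay above all 4 WT libraries, and the KO mean was 5.24 times the WT mean. The log2 fold change of KO over WT was 2.56 ± 0.25 (SE) with NORAD siRNA and 2.23 ± 0.24 with control siRNA. By size of increase these placed KLK5 at rank 14 and rank 12 of the 13764 HCT116 genes that passed the low-count filter. The WT values rest on few reads, 19 to 44 expected counts a library, against 138 to 198 in KO libraries.

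KLK7, the protease that KLK5 activates in skin, came next. It had 33.6 and 33.2 CPM in KO cells with NORAD siRNA and 41.7 and 34.0 CPM in KO cells with control siRNA. In WT cells it had 14.5 and 13.5 CPM with NORAD siRNA and 16.7 and 17.0 CPM with control siRNA. The genotypes did not overlap, the KO mean being 2.31 times the WT mean. The log2 fold change was 1.28 ± 0.13 with NORAD siRNA and 1.17 ± 0.13 with control siRNA, at ranks 83 and 73 of 13764. KLK7 had counts with a fractional part in 16 of 16 libraries, so part of its reads were shared out among rows by the authors' estimation. KLK10 had them in 6 of 16 libraries, and KLK5, KLK6, KLK8 and KLK11 in 0.

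KLK10 had 12.1 and 12.3 CPM in KO cells with NORAD siRNA and 17.4 and 16.1 CPM in KO cells with control siRNA. The WT cells had 8.78 and 8.26 CPM with NORAD siRNA and 9.45 and 9.94 CPM with control siRNA. The genotypes again did not overlap, the KO mean being 1.59 times the WT mean. The log2 fold change was 0.54 ± 0.13 with NORAD siRNA and 0.80 ± 0.13 with control siRNA.

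KLK8 and KLK6 differed less by genotype. KLK8 had 27.4 and 20.9 CPM in KO cells with NORAD siRNA and 27.0 and 21.4 CPM with control siRNA, against 18.9 and 17.4 CPM in WT cells with NORAD siRNA and 20.3 and 18.2 CPM with control siRNA. All 4 KO values exceeded the WT values, but the lowest KO library, at 20.9 CPM, lay close to the highest WT library, at 20.3 CPM. The KLK8 log2 fold change was 0.43 ± 0.17 with NORAD siRNA and 0.33 ± 0.17 with control siRNA. KLK6 had 44.7 and 41.2 CPM in KO cells with NORAD siRNA and 56.4 and 45.0 CPM with control siRNA, against 39.2 and 33.7 CPM in WT cells with NORAD siRNA and 43.2 and 35.0 CPM with control siRNA. The KLK6 genotypes overlapped, and its log2 fold change was 0.25 ± 0.15 with NORAD siRNA and 0.38 ± 0.15 with control siRNA.

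KLK11 was at the limit of detection. It had 2 and 2 expected counts in KO cells with NORAD siRNA and 7 and 2 with control siRNA, while all 4 WT libraries were at 0. The KO sum of 13 counts set against a floor of 3 counts over the WT group, scaled to library totals, gives a ratio of 4.33. The floor allows for counting error in the WT group only. The KO sum enters as observed, so the ratio is a description and not a lower bound. Of those 13 counts 7 come from replicate 1 of KO cells with control siRNA, and without that library the ratio is 2.47. KLK11 did not pass the low-count filter and is left out of the fits.

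**Figure D1:**
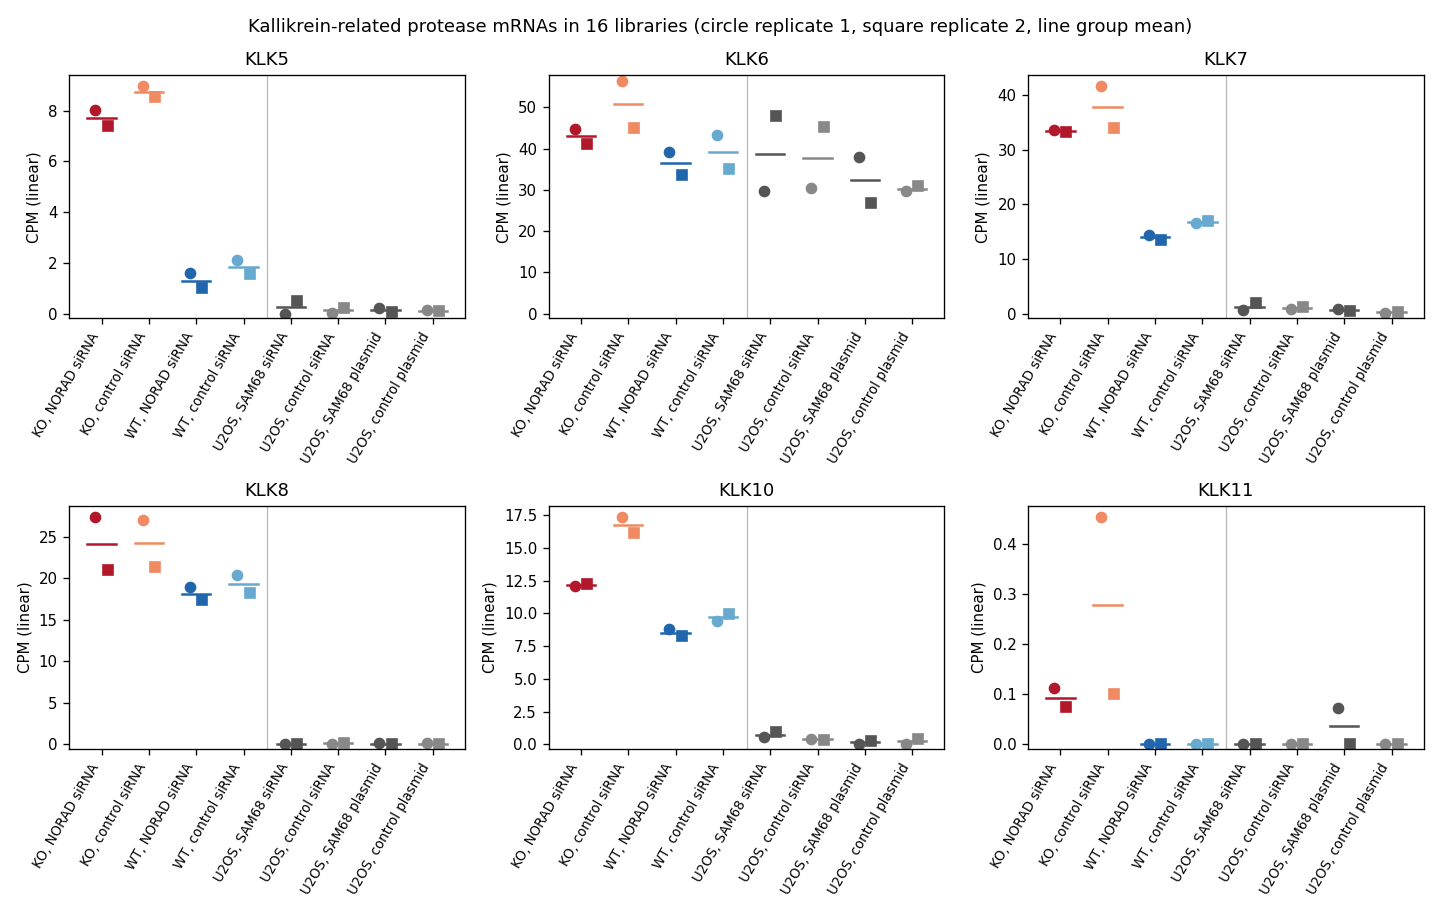
CPM (linear axes from 0) of the 6 kallikrein mRNAs in each of the 16 libraries, with HCT116 groups left of the grey line and U2OS groups right of it; circles are replicate 1, squares replicate 2 and lines group means. KLK5 lies between 7.40 and 8.97 CPM in KO libraries and between 1.01 and 2.12 CPM in WT libraries, while KLK6 lies between 26.9 and 56.4 CPM over all 16 libraries.

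Among the 5 members that passed the filter, KLK5, KLK7, KLK8 and KLK10 lay above WT in every KO library, as did KLK11 among low counts. Over all 13764 genes tested, 9.47% had all 4 KO libraries above all 4 WT libraries. Calls were made with edgeR's quasi-likelihood test at a Benjamini-Hochberg adjusted p below 0.05 over all tested genes. With NORAD siRNA, 11.6% of tested genes were called higher in KO cells and 6.58% lower. With control siRNA, 0.167% were called higher and 0.145% lower. Since the genotype difference chose the members, no call of theirs is read from these 2 comparisons.

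The fold changes moved with base composition. Across 11722 genes with a transcript GC content, the KO over WT log2 fold change had a Spearman rho of -0.76 with GC content under NORAD siRNA and of -0.35 under control siRNA, a description across genes that are not independent. KLK5, KLK6, KLK8 and KLK10 have GC contents of 54.6% to 58.2%. The genes in their GC deciles had median log2 fold changes under NORAD siRNA of -0.24 for KLK5, KLK6 and KLK8 and -0.17 for KLK10, and of -0.05 under control siRNA. KLK7, at 48.9%, sits in a decile with medians of 0.06 under NORAD siRNA and 0.02 under control siRNA. The comparisons tested below also moved with GC content. Over the same 11722 genes rho was -0.73 for NORAD siRNA in KO cells, 0.43 in WT cells and -0.76 for their interaction. In U2OS, over 12898 genes, rho was 0.43 with SAM68 siRNA and 0.28 with the plasmid. Between the lines, over 13479 genes, rho was 0.20. The part of base composition in the members' values was not tested in any of these comparisons.

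Along the chromosome the difference was uneven. Of the 10 other kallikrein genes listed, KLKB1 (the plasma kallikrein gene, which lies elsewhere) included, only KLK1 passed the filter in HCT116, and it was not called with either siRNA. KLK1 had 0.262 to 0.509 CPM in KO libraries and 0.252 to 0.794 CPM in WT libraries. Its log2 fold change was -0.89 ± 0.51 with NORAD siRNA and 0.09 ± 0.61 with control siRNA. KLK9, between KLK8 and KLK10, reached at most 0.0374 CPM in KO libraries and 0.163 CPM in WT libraries, and KLK12 was at 0 in all 16 libraries. Of the 20 nearest protein-coding neighbours, 10 on each side, 9 passed the filter and were tested. With NORAD siRNA 3 of these 9 had an unadjusted edgeR p below 0.05, namely CD33, LRRC4B and CLEC11A. So did 5182 of all 13764 tested genes. With control siRNA 1 of the 9 did, CD33, beside 1269 of all tested genes. The log2 fold change of LRRC4B was -1.82 ± 0.66 with NORAD siRNA and 0.55 ± 0.68 with control siRNA. That of CLEC11A was -1.19 ± 0.44 and -0.09 ± 0.44. CD33, a sialic acid-binding receptor of myeloid cells, had 0.283 to 0.650 CPM in the 4 KO libraries and 2.06 to 2.89 CPM in the 4 WT libraries. Its log2 fold change was -2.36 ± 0.40 with NORAD siRNA (edgeR adjusted p = 0.0139) and -2.29 ± 0.41 with control siRNA (adjusted p = 0.0653). Both are opposite in sign to the values of the 5 members that passed the filter. CD33 was thus the 1 of 9 tested neighbours called with NORAD siRNA, where 18.1% of all tested genes were called in either direction, and it was not called with control siRNA. The NORAD siRNA call was kept in 1 of 4 fits that left out a library (adjusted p 0.0384 to 0.176).

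**Figure D2:**
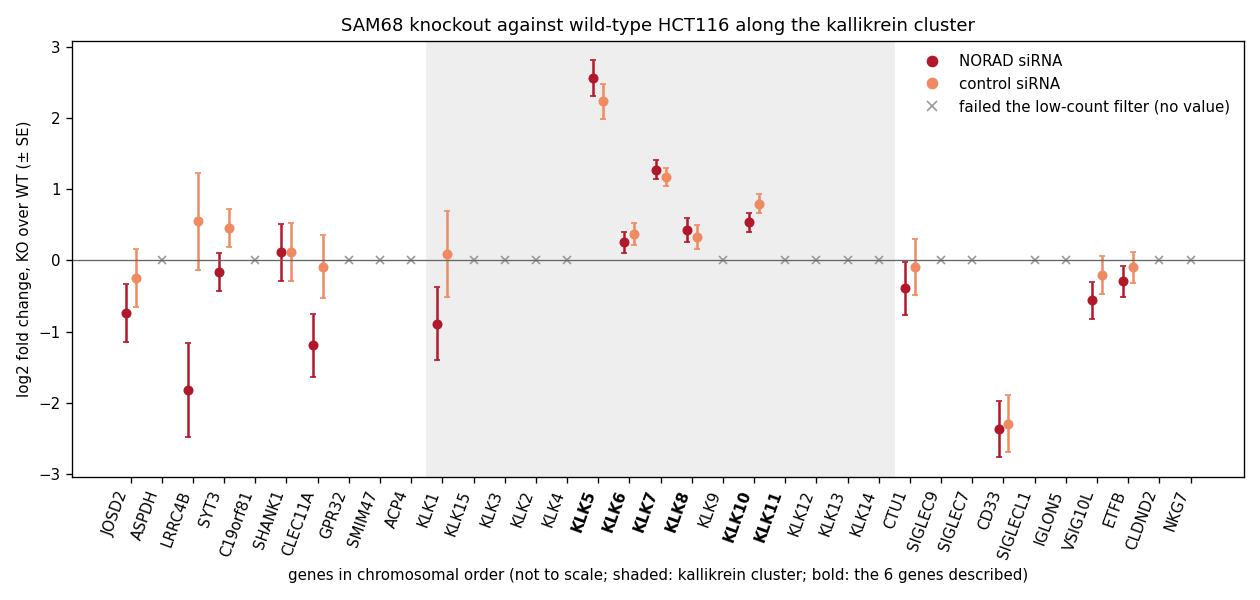
Log2 fold change of KO over WT HCT116 (points, ± SE) for genes in chromosomal order, red for NORAD siRNA and orange for control siRNA; grey crosses are genes that failed the low-count filter and have no value. KLK5 at 2.56 and 2.23 and KLK7 at 1.28 and 1.17 lie highest in the shaded cluster, and CD33 at -2.36 and -2.29 lies lowest.

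Levels of different members were compared on the deposited TPM, which are scaled for transcript length. In KO cells with control siRNA, KLK8 averaged 79.8 ± 10.0 TPM (SD, n = 2), KLK6 56.1 ± 6.73, KLK7 32.8 ± 2.22, KLK5 11.0 ± 0.134, KLK10 9.60 ± 0.0141 and KLK11 0.435 ± 0.375. In WT cells with control siRNA the order was KLK8 at 58.7 ± 1.37 TPM, KLK6 at 43.8 ± 3.93, KLK7 at 14.8 ± 1.01, KLK10 at 5.57 ± 0.474, KLK5 at 2.24 ± 0.495 and KLK11 at 0. KLK5 thus ranked above KLK10 in KO cells and below it in WT cells, by more than their SDs in each, and each other neighbouring pair in these orders also differed by more than the SDs. The 6 genes summed to 167 TPM in KO and 113 TPM in WT cells with NORAD siRNA, and to 190 TPM in KO and 125 TPM in WT cells with control siRNA. KLK5 made up 5.77% of that sum in KO cells and 1.79% in WT cells with control siRNA, and KLK7 17.3% in KO and 11.9% in WT cells.

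**Figure D3:**
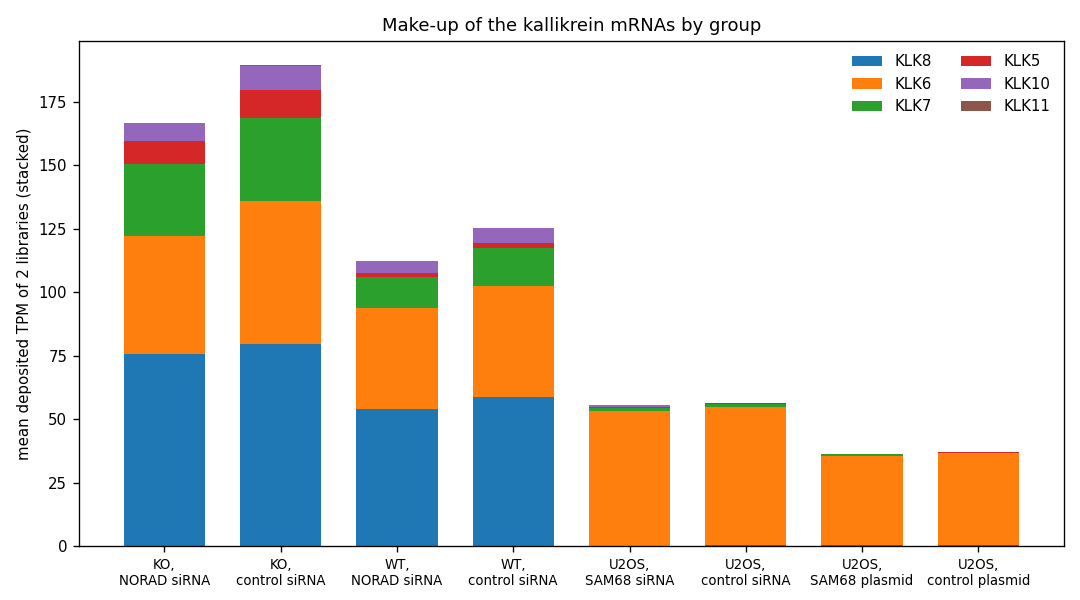
Mean deposited TPM of the 6 kallikreins, stacked, for the 8 groups of 2 libraries each. KLK8 and KLK6 form the larger part of each HCT116 bar, KLK7 and KLK5 are thicker in KO than in WT bars, and the U2OS bars consist almost wholly of KLK6.

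Whether lowering NORAD alters these mRNAs was tested within each genotype. No member was called in KO cells, where 0.00727% of tested genes were called, namely NORAD itself. KLK10 had the lowest estimate there, -0.45 ± 0.13 on the log2 scale (edgeR adjusted p = 0.428, 95% interval -0.73 to -0.16). Its unadjusted p was 0.00655, and 1558 of the 13764 genes had an unadjusted p below 0.05 in that comparison. The estimate was -0.17 ± 0.21 for KLK5 (adjusted p = 0.740), -0.23 ± 0.15 for KLK6 (0.549), -0.16 ± 0.13 for KLK7 (0.594) and 0.01 ± 0.17 for KLK8 (0.989), none of them past the threshold. DESeq2 gave no adjusted p to KLK5, KLK8 and KLK10 in this comparison and called neither of the other two.

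In WT cells no member was called either, again with 0.00727% of tested genes called, and all 5 adjusted p were 0.9995. KLK5 had the lowest estimate, -0.50 ± 0.28 (95% interval -1.13 to 0.13), and KLK7 followed at -0.27 ± 0.13 (-0.56 to 0.03). KLK10, KLK6 and KLK8 were at -0.18 ± 0.14, -0.10 ± 0.15 and -0.09 ± 0.17. The intervals leave room for changes larger than these estimates, down to -1.13 for KLK5 and -0.56 for KLK7, so similar levels are not shown.

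The difference of the KO against WT effect between the 2 siRNAs was tested as an interaction. edgeR called 0% of tested genes, with 1048 at an unadjusted p below 0.05, and DESeq2 called 2 genes. No member was called by either tool. The KLK5 difference was 0.33 ± 0.35 on the log2 scale (95% interval -0.46 to 1.11, adjusted p = 0.748) and the KLK7 difference 0.10 ± 0.18 (-0.31 to 0.51, adjusted p = 0.853). That of KLK10 was -0.26 ± 0.19 (-0.68 to 0.16, adjusted p = 0.663). KLK6 and KLK8 differed by -0.12 ± 0.22 and 0.09 ± 0.24 (adjusted p = 0.850 and 0.899). These comparisons share libraries with the genotype comparison.

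In U2OS cells only KLK6 was abundant. KLK6 had 29.6 and 47.8 CPM with SAM68 siRNA and 30.4 and 45.2 CPM with control siRNA. It had 38.0 and 26.9 CPM with the SAM68 plasmid and 29.8 and 30.9 CPM with the control plasmid. It held 95.4% to 97.3% of the members' summed TPM in the U2OS groups. KHDRBS1 had 75.4 and 48.2 CPM with SAM68 siRNA, against 229 and 232 CPM with control siRNA, and 523 and 590 CPM with the plasmid, against 220 and 273 CPM without it.

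KLK7 had 0.633 and 1.89 CPM with SAM68 siRNA, against 0.805 and 1.31 CPM with control siRNA, and 0.800 and 0.505 CPM with the SAM68 plasmid, against 0.0767 and 0.383 CPM with the control plasmid. The siRNA groups overlapped. The plasmid values rest on few reads, 10.95 and 12.04 expected counts with the SAM68 plasmid against 1.08 and 8.45 with the control plasmid. KLK10 reached at most 0.942 CPM in U2OS, KLK5 0.496 CPM and KLK8 0.180 CPM, and KLK11 had 1 read in 1 of 8 libraries. KLK5, KLK8 and KLK11 did not pass the filter in U2OS, so the 2 SAM68 comparisons say nothing of KLK5.

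No tested member was called in U2OS with SAM68 siRNA or with the SAM68 plasmid, where edgeR called 0.00639% of 15658 tested genes each, and none had an unadjusted p below 0.05 or a DESeq2 call. With SAM68 siRNA the log2 fold change was -0.02 ± 0.28 for KLK6, 0.22 ± 0.60 for KLK7 and 0.88 ± 0.66 for KLK10 (adjusted p = 1 for each). With the plasmid it was 0.10 ± 0.29 for KLK6, 1.38 ± 0.79 for KLK7 and -0.67 ± 0.86 for KLK10 (adjusted p = 1 for each). The 95% interval of KLK7 with SAM68 siRNA, -1.12 to 1.57, includes the 1.17 seen in knockout HCT116 cells. KHDRBS1 itself was not called in either comparison, with a log2 fold change of -1.94 ± 0.25 with SAM68 siRNA (adjusted p = 0.185) and 1.18 ± 0.24 with the plasmid (adjusted p = 1). With SAM68 siRNA the absence of member calls thus comes from a comparison in which the targeted gene was not called either. The plasmid encodes mouse SAM68, while the processing notes name the human build hg19. How far the KHDRBS1 row measures the plasmid mRNA was not tested.

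KLK7 and KLK10, which passed the filter within each line, were higher in WT HCT116 than in U2OS, both with control siRNA. In that comparison 65.4% of 16444 tested genes were called and 29.8% were called higher in HCT116, and line cannot be told apart from any batch of the lines. The WT control siRNA libraries it uses are also those of the genotype comparison. The log2 fold change was 4.58 ± 0.36 for KLK10 (adjusted p by edgeR = 7.90e-08) and 3.96 ± 0.35 for KLK7 (2.49e-07). KLK8 and KLK5 failed the filter in U2OS and entered this fit through HCT116, where they are higher, so their log2 fold changes of 7.06 ± 0.34 and 3.70 ± 0.65 are given with no test. KLK6 differed by 0.05 ± 0.25 (adjusted p = 0.868, 95% interval -0.48 to 0.58). KLK2, the prostate kallikrein hK2, ran the other way, with 0 CPM in all 8 HCT116 libraries and 0.568 to 1.29 CPM in U2OS. CD33 was also lower in HCT116, by -0.74 ± 0.27 (adjusted p = 0.0277), a call kept in 1 of 4 fits that left out a library.

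**Figure D4:**
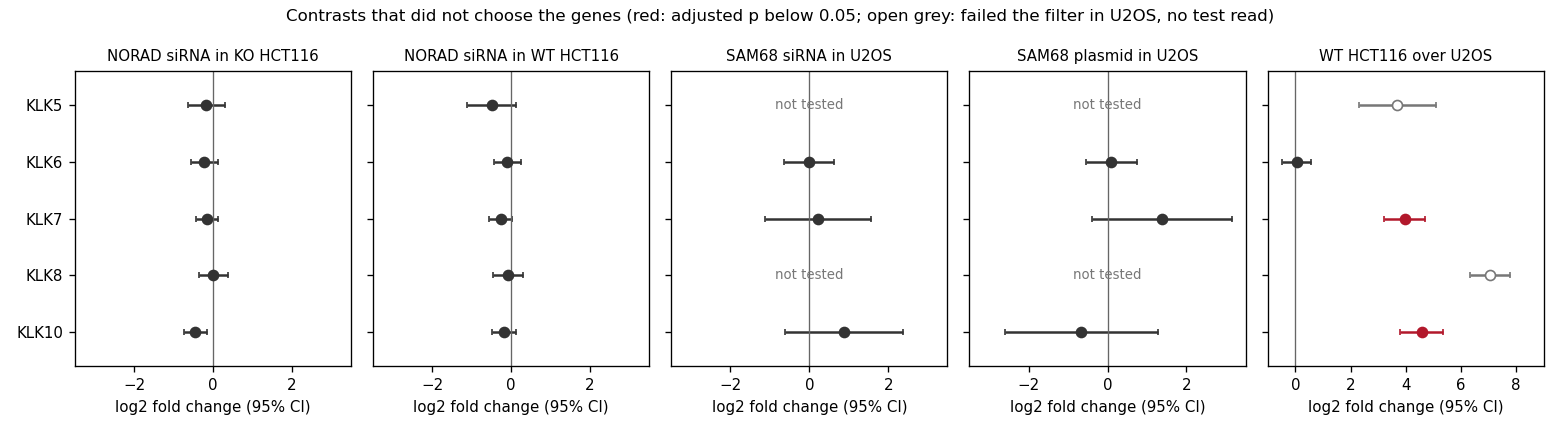
Log2 fold changes with 95% intervals of the 5 members for the NORAD siRNA comparisons, the SAM68 siRNA and plasmid comparisons in U2OS, and WT HCT116 over U2OS; red points are called, open grey points failed the filter in U2OS and carry no test, and the last panel has a wider axis. KLK10 with NORAD siRNA in KO cells lies at -0.45, and in the last panel KLK8 lies at 7.06 and KLK6 at 0.05.

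The wider protease system was read from gene lists. With control siRNA, edgeR called 0 of 6 tested kallikrein inhibitors in KO against WT cells, 0 of 4 activators and membrane proteases, and 0 of 12 receptors and substrates. At an unadjusted p below 0.05 there were 2, 1 and 3 of them, and DESeq2 called 1 activator. The median log2 fold changes were 0.00, 0.03 and 0.06, against 0.00 over all tested genes. SPINT1 and SPINT2, inhibitors of membrane serine proteases, and ST14, which encodes matriptase, a protease able to activate kallikrein precursors, were abundant in HCT116. In WT HCT116 they had 88.5, 402 and 203 CPM, against 0.125, 0.375 and 0.263 CPM in U2OS. PRSS8, the prostasin gene, had 26.5 CPM in WT HCT116 and 0.148 CPM in U2OS. Other genes of these lists stood the other way. SERPINA1, the alpha-1-antitrypsin gene, had 1.23 CPM in WT HCT116 and 108 CPM in U2OS, and PLAT, encoding tissue plasminogen activator, 9.03 CPM in WT HCT116 and 68.2 CPM in U2OS. Of 11 inhibitors in the fit of both lines 5 were called higher and 6 lower in WT HCT116. Of 5 activators 3 were called higher and 2 lower, where 65.4% of all tested genes were called. Fitted apart, only 6 inhibitors and 4 activators passed the filter in HCT116, and 8 and 3 in U2OS. Genes passing in just 1 line entered through the line where they are higher. These counts are thus a description and not a test.

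With NORAD siRNA, KO against WT, 1 of 6 inhibitors was called lower, and of the 4 activators 1 was called higher and 1 lower, while 0 of 12 receptors and substrates were called. Over all tested genes 11.6% were called higher and 6.58% lower there. SERPINA5, the protein C inhibitor, had a log2 fold change of -2.35 ± 0.48 (edgeR adjusted p = 0.0202). PLAU, encoding urokinase, had 0.55 ± 0.10 (0.0146), and ST14 had -0.43 ± 0.12 (0.0389). Leaving out 1 library ended each of these calls in all 4 fits, with adjusted p of 0.0822 to 0.187, 0.0517 to 0.205 and 0.123 to 0.240. Without WT NORAD siRNA replicate 1 or KO NORAD siRNA replicate 1 the number of called genes over the whole table was 19, and without replicate 2 of WT it was 30 and of KO 747, in place of 2495.

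Markers of cornifying epithelium, the tissue in which KLK5 and KLK7 are best known, were looked at beside them. Of 34 such markers 16 were tested, and edgeR called 0 with control siRNA, with 3 at an unadjusted p below 0.05 and 0 called by DESeq2. The summed level of the 34 was 428 to 586 CPM in KO libraries and 465 to 550 CPM in WT libraries. In HCT116 14 of the 34 averaged over 1 CPM, led by SFN at 220 CPM in KO and 194 CPM in WT libraries. A further 10 were at 0 in all HCT116 libraries, IVL, LORICRIN, KRT1 and FLG among them. With NORAD siRNA, ABCA12 was called higher in KO cells (1.60 ± 0.38, adjusted p = 0.0263), and EVPL (-0.87 ± 0.20, 0.0248) and PPL (-0.41 ± 0.11, 0.0381) lower. The first encodes a lipid transporter of the epidermis and the other two encode envelope proteins. These are 3 of 16 tested markers, in a comparison that called 18.1% of all tested genes, so the share is near that of all genes. None of these 3 calls was kept when any 1 library was left out.

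Of the other cell type lists, 0 of 11 tested colon markers, 0 of 8 mesenchymal markers and 0 of 7 hormone receptors were called with control siRNA, with 1, 2 and 1 at an unadjusted p below 0.05 and 0 called by DESeq2. The summed colon markers were 4373 to 5500 CPM in KO and 4000 to 4832 CPM in WT libraries. The summed mesenchymal markers were 35.7 to 38.5 CPM in KO and 44.3 to 50.0 CPM in WT libraries, without overlap, and their part in the kallikrein values was not tested. With NORAD siRNA, EPCAM (0.47 ± 0.10, adjusted p = 0.0212) and NR3C1, the glucocorticoid receptor gene (0.69 ± 0.18, 0.0307), were called higher, and VIM (-1.48 ± 0.26, 0.0145) and COL1A1 (-0.74 ± 0.19, 0.0291) lower, again beside 18.1% of all tested genes. Leaving out 1 library ended these calls in every fit, except for EPCAM in 1 of 4. None of the 10 blood, endothelial and liver markers passed the filter in HCT116, with sums of 0.303 to 1.04 CPM in KO and 0.635 to 1.17 CPM in WT libraries.

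Over these lists and the other kallikreins together, edgeR called 0 genes in the NORAD siRNA comparisons within KO and within WT cells, in the interaction, and in the 2 SAM68 comparisons in U2OS. At an unadjusted p below 0.05 there were 10, 3, 4, 0 and 1 entries in that sequence of comparisons, of 65 tested in HCT116 and 76 in U2OS, and DESeq2 called 0 in each.

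The genes most like KLK5 and KLK7 were ranked by the Pearson correlation of log2 CPM over the 8 HCT116 libraries, among 10430 genes averaging at least 5 CPM in the higher genotype. The libraries share genotype, so these values largely follow the KO against WT difference and are a description. KLK5 was closest to BTG2, an antiproliferative gene (r = 0.993), then to KLK7 (0.985), TRNP1 (0.983), TP53INP1 (0.979) and PRCP (0.978). Among the genes closest to KLK7 were BTG2 (0.986), KLK5 (0.985), HACL1 (0.977) and TRNP1 (0.975). BTG2 averaged 38.6 CPM in KO and 23.7 CPM in WT libraries, and TP53INP1, a stress-induced p53 target, 25.5 and 9.21 CPM. Only the genotype means were then removed, over the 8 libraries. The 10 pairs of members had r of 0.139 (KLK8 and KLK10) to 0.743 (KLK7 and KLK10). The pair KLK5 and KLK7 had 0.685, KLK5 and KLK6 0.714, and KLK6 had 0.710 with KLK7 and 0.711 with KLK8. With 8 libraries no order is read from these values. Differences between the NORAD and control siRNA groups remain in them, so they do not show variation within a condition. KLK7 and KLK10, for example, both averaged less with NORAD siRNA in each genotype. No such values are given for all genes, so the part of shifts common to whole libraries was not tested.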

How the data were processed

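Poly(A) RNA-seq of 16 libraries (U2OS and HCT116 cells, 8 groups of 2) was analysed from 1 gene table per library. The gene-level columns are those RSEM writes, per the file headers, and of them the authors' expected counts (estimated read counts, not normalized) and the authors' deposited TPM were used. The submitters' processing notes name STAR, RSEM and hg19. Versions and the strand setting of the counting were not stated there, so antisense or overlapping transcripts are uncertain.

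Rounded expected counts went through filterByExpr and TMM scaling into the quasi-likelihood test of edgeR (4.0.16, under R 4.3.3), with Benjamini-Hochberg adjustment over all tested genes and a threshold of 0.05. HCT116 and U2OS were fitted apart (13764 and 15658 genes, biological coefficients of variation of 11.3% and 20%), and the comparison of the lines used all 16 libraries (16444 genes, 16.4%). Printed standard errors are the log2 fold change divided by the root of the F statistic, and 95% intervals use the t quantile of each fit. Printed CPM are expected counts over TMM-scaled library sizes of all 16 libraries. The fit was tested on simulated data. Depth was 11349545 to 27387412 expected counts, and low counts limit the members in U2OS. No replicate pair agreed within counting error (chi-square 7.83 to 60.2 per gene), so all 16 libraries were kept. With 2 libraries in each group, the smallest two-sided p of an exact permutation test is 0.333.

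The members and gene lists were chosen with earlier results of these data known. Named genes were the 6 members, the called list genes (up to 5 per list), 10 neighbours on each side of the cluster, the 5 genes most correlated with KLK5 and with KLK7, KHDRBS1 and NORAD; CD33 in the comparison of the lines and single marker levels were named after their values were seen. A gene that this rule names is not reported here. Names came from gene numbers (25338 of 27434 rows), gene order from RefSeq GRCh38.p14. Alternatives were RLE scaling, DESeq2 1.42.0, no filter, a replicate block, only the groups compared, and each library left out.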

Additional observations from a re-analysis of the deposited data

How the results depend on the processing

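As a description of values that chose the members, leaving out 1 library gave log2 fold changes of 2.05 to 2.48 for KLK5 and 0.99 to 1.32 for KLK7 with control siRNA, and of 2.28 to 2.94 for KLK5 with NORAD siRNA. The calls of KLK7 and KLK10 between the lines were kept in every alternative run, and no alternative gave a member a call in the NORAD siRNA or U2OS comparisons. Leaving out 1 HCT116 library, an alternative chosen after seeing the data, gave KLK11 a ratio to the WT floor of 2.47 to 5.49. Depth limits KLK5 in WT cells and all members but KLK6 in U2OS.

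Counts of called genes moved. With control siRNA, KO against WT gave 43 calls, and 112 with DESeq2, 272 without the filter, 7 with only the groups compared and 20 to 41 with 1 library left out. With NORAD siRNA it gave 2495, and 3965 without the filter, 4417 with only the groups compared and 19 to 747 with 1 library left out. NORAD siRNA in KO cells gave 1, and 8 with DESeq2, 61 without the filter, 7 with only the groups compared and 0 to 4 with 1 library left out. NORAD siRNA in WT cells gave 1, and 5, 33, 2 and 1 to 2 under the same settings. The interaction gave 0, and 2 with DESeq2, 30 without the filter and 0 to 1 with 1 library left out. SAM68 siRNA gave 1, and 7 with DESeq2, 27 without the filter, 0 with only the groups compared and 0 to 5 with 1 library left out. The plasmid gave 1, and 4, 15, 2 and 0 to 4 under the same settings. The cause was not tested.

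Replicate numbers are not said to mark a shared culture or batch. With the replicate number as a block the counts were 5539 with NORAD siRNA and 254 with control siRNA for KO against WT, 7 and 3 for NORAD siRNA in KO and in WT cells, 2 for the interaction, and 0 for SAM68 siRNA and 0 for the plasmid. Deviations of same-numbered libraries correlated at -0.08 to 0.38 over the 7 pairs of groups.

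Values near 0 changed sign. KLK8 with NORAD siRNA in KO cells was -0.0011 without the filter, and KLK6 with SAM68 siRNA was 0.03 with RLE scaling (0.0338) and with DESeq2 (0.0335). With 1 library left out, KLK8 ranged from -0.21 to 0.19 for NORAD siRNA in KO cells, from -0.16 to 0.0013 in WT cells and from -0.12 to 0.28 in the interaction. KLK6 ranged from -0.24 to 0.062 for NORAD siRNA in WT cells, from -0.30 to 0.054 in the interaction, from -0.35 to 0.35 with SAM68 siRNA, from -0.17 to 0.33 with the plasmid and from -0.23 to 0.36 between the lines. KLK7 ranged from -0.061 to 0.26 in the interaction and from -0.76 to 0.81 with SAM68 siRNA, and KLK10 from -1.89 to 1.28 with the plasmid. A group with 1 library left was assumed to vary like the others.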
